A study of Mus musculus with 2 samples.

Results

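The polyamine genes followed here were chosen by name: Odc1 (ornithine decarboxylase), Srm and Sms (the spermidine and spermine synthases), Sat1, Smox and Paox (acetylation and oxidation), the antizymes Oaz1 and Oaz2 and the antizyme inhibitors Azin1 and Azin2. Of these 10 genes, 9 have a row among the 19465 genes of the count matrices, and Srm was not analysed here. Each was measured in 2 sections of B16.F10 melanoma, a mouse melanoma cell line engrafted into mice, 1 section per genotype. The WT section came from a Csnk2bfl/fl mouse, which the labels call wild-type and which carries floxed Csnk2b. The KO section came from a Foxp3-Cre × CK2b-fl/fl mouse (Csnk2bTreg-/-), in which Cre recombinase driven by Foxp3 removes Csnk2b, the regulatory subunit of protein kinase CK2, from regulatory T cells. Both mice were untreated and 8 to 16 weeks old, and the tumours were taken at day 15, fixed in formalin, embedded in paraffin and cut at 10 µm. The engrafted melanoma cells do not carry the deletion. Counts came from a probe-based spatial assay (Visium CytAssist), in which a spot is a small region that can hold several cells.

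Polyamines are small cations that dividing cells need for translation and growth. Odc1 makes putrescine, the first polyamine, and Srm and Sms extend it to spermidine and spermine, whereas Sat1 acetylates the longer polyamines and Paox and Smox oxidise them. Antizyme binds the ornithine decarboxylase protein, sends it to the proteasome and limits polyamine uptake, and the antizyme inhibitors are enzymatically inactive relatives of ornithine decarboxylase that bind antizyme in its place. Much of this control acts on protein, which a count of transcripts does not show.

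The WT section held 3066 spots and 88735936 UMIs (counted molecules), with a median of 26818.5 per spot, and the KO section 2746 spots, 94422680 UMIs and a median of 36769. Levels are given as UMIs per 1000000 UMIs of the same spots (CPM), and only within a gene, since probes of different genes capture differently. Spots were sorted without any of the 9 genes. Collagen-rich spots were the top 10% of all spots by the share of UMIs from 8 collagen genes (at least 5.52%). Muscle-rich spots were the top 5% by 14 skeletal muscle genes (at least 0.0236%). Melanoma-dense spots were those of the rest with at least the median share of 10 melanocytic genes (4.52%). Of the WT spots, 566 were collagen-rich, 62 muscle-rich, 1279 melanoma-dense and 1159 of no class, and of the KO spots 7, 229, 1591 and 919. All 10 melanocytic genes were detected and made up 5.2% and 5.4% of the UMIs of WT and KO melanoma-dense spots. Because the KO section had so few collagen-rich spots, the classes were also set with cutoffs within each section, which gave 288 WT spots of at least 8.37% collagen and 229 KO spots of at least 1.39%. Csnk2b itself read 392 CPM in each section (KO over WT 0.998, 95% interval 0.984 to 1.01), a level that cells without the deletion also supply, and Foxp3 gave 32 and 51 UMIs.

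With 1 section per genotype there is no replicate and no p-value, and genotype, mouse, block and section cannot be told apart. Ratios carry exact 95% binomial intervals that cover counting error only, and the spread within a section is shown by the range over its 4 quadrants. A gene was called when its ratio reached 1.5-fold in either direction, its interval left out 1 and at least 50 UMIs were counted over both groups. In spots of mixed cells, fewer cells of a type and less RNA per cell cannot be told apart. As a background for the probes, 15 genes of other tissues (pancreas, retina, testis and others) were used, with a median of 0.214 CPM over WT spots and 0.508 CPM over KO spots.

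Azin2 and Sat1 were higher in collagen-rich than in melanoma-dense spots. Azin2 read 67.6 CPM in the collagen-rich spots of the WT section (576 UMIs) and 1.42 CPM in its melanoma-dense spots (71 UMIs), a ratio of 47.6 (37.1 to 61.8). The collagen-rich spots held 9.61% of the section's UMIs and 63.2% of its Azin2 UMIs. Sat1, the acetyltransferase that starts polyamine breakdown and export, read 188 CPM there against 91.6 CPM (2.05-fold; 1.93 to 2.17). Odc1, Sms and Azin1 lay the other way. Odc1 was 9.97 CPM in collagen-rich and 18.6 CPM in melanoma-dense spots (0.536; 0.424 to 0.670). Sms was 5.75 against 11.6 CPM (0.495; 0.362 to 0.663). Azin1 was 59.1 against 90.1 CPM (0.656; 0.597 to 0.719). So 2 of the 9 genes were called higher in the collagen-rich spots, where 25.7% of all genes tested were, and 3 lower, against 39.8% of all genes. The median log2 ratio of the 9 genes was -0.05, beside -0.35 over 12311 genes. Cutoffs within the section gave the same 5 calls, beside 23% of all genes higher and 44.3% lower.

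The remaining genes differed little between these regions of the WT section. Smox, spermine oxidase, read 50.3 CPM in collagen-rich and 38.5 CPM in melanoma-dense spots (1.31; 1.17 to 1.45). Oaz1, the main antizyme, read 628 against 778 CPM (0.807; 0.784 to 0.831). Oaz2, the second antizyme, was nearly level at 99.9 against 104 CPM (0.962; 0.894 to 1.03). Paox, the peroxisomal oxidase of acetylated polyamines, gave 19 and 94 UMIs and a ratio of 1.19 (0.683 to 1.96), too few to show a difference of this size. Collagen-rich spots also held other cells: the summed level of 12 macrophage markers was 6127 CPM against 1203 CPM in melanoma-dense spots, of 12 T cell markers 618 against 29.1 CPM, and of 10 fibroblast markers 3476 against 147 CPM, with no marker of these lists at 0. Their part in the ratios was not tested. Thy1 is in both the T cell and the fibroblast list, so those 2 sums are not independent. The median T cell marker read 7.74 CPM in collagen-rich and 0.960 CPM in melanoma-dense spots.

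**Figure D1:**
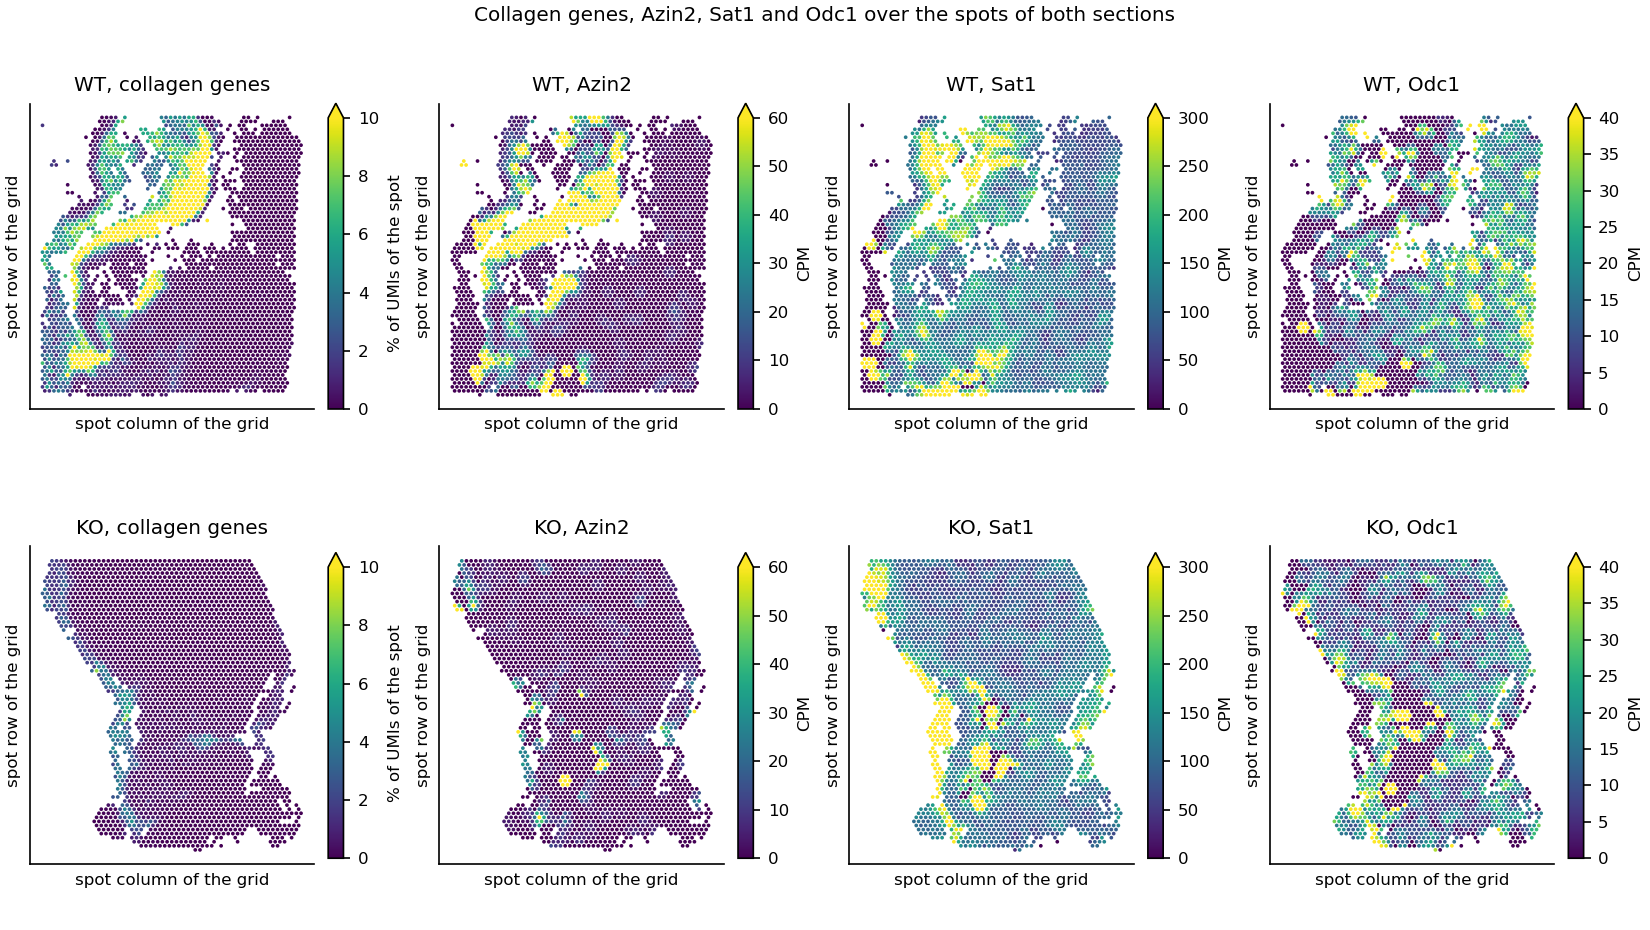
Maps of the WT section (top row) and the KO section (bottom row), with 1 dot per spot: the share of UMIs from 8 collagen genes in percent, and Azin2, Sat1 and Odc1 in CPM over a spot and its neighbours, with colour scales capped. Azin2 follows the collagen-rich rim and bands of the WT section and is faint in the KO section, Sat1 is high along the edges of both, and Odc1 is spread through the tumour.

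The upstream sequences of Odc1, Oaz1 and Sat1 are shown because Odc1 and Oaz1 were the pair called lower together in the KO melanoma-dense spots, while Sat1 was level there. They are RefSeq sequence (GRCm38.p6) up to the base before the gene, written 5′ to 3′ on the gene's strand, with matches to 5 motifs in capitals: the E-box CACGTG, the TATA box TATAAA, the GC box GGGCGG, the CCAAT box CCAAT and the cyclic AMP response element TGACGTCA, each on both strands.
Odc1, chr12:17544623-17544807, + strand: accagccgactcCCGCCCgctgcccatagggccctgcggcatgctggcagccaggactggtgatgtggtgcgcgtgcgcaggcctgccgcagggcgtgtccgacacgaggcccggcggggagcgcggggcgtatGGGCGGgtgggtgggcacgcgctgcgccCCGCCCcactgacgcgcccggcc
Oaz1, chr10:80826406-80826655, + strand: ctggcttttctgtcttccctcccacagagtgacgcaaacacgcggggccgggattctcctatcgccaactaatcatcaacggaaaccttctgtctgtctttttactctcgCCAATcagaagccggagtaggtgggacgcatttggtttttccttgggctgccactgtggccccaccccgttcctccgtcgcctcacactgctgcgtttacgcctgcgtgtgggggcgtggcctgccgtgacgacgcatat
Sat1, chrX:155216450-155216699, - strand: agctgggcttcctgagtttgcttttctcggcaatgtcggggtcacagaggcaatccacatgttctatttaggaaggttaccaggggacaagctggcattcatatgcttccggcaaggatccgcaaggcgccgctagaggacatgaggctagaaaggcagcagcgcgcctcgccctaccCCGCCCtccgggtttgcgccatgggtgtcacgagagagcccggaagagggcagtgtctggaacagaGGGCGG
The Odc1 stretch of 185 bases held 3 GC boxes, the Sat1 stretch 2 GC boxes and the Oaz1 stretch 1 CCAAT box. No 2 of these matches overlapped, and none of the 3 stretches held an E-box, a TATA box or a response element in these letters. Among 32851 RefSeq upstream windows of 250 bases, 32.7% held a GC box and 33.8% a CCAAT box. A TATA box was in 12.4%, an E-box in 6.02% and the response element in 1.55%. These windows were not cut where they run into a gene, whereas the Odc1 stretch was, so its 185 bases are not on like terms. The matches describe the letters only and show no binding. In all, 7 of the 10 genes had such a window.

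Odc1 (chr12:17544808-17551502), the first enzyme of synthesis, differed between the sections in a way that depended on the region. Over all spots it read 17.2 CPM in the WT section (1523 UMIs) and 13.3 CPM in the KO section (1255 UMIs), with quadrants from 11.5 to 19.7 and from 10.2 to 18.5 CPM, which overlapped. The ratio was 0.774 (0.718 to 0.835), and 1.01 with equal weight per spot. In melanoma-dense spots the levels were 18.6 CPM (930 UMIs) and 11.1 CPM (768 UMIs), a ratio of 0.596 (0.541 to 0.657). There the quadrants ran from 11.1 to 19.7 CPM in WT spots and from 8.91 to 12.6 CPM in the KO section, so the lowest WT quadrant lay inside the KO range. In spots of no class the order turned, with 16.7 CPM in WT spots and 20.3 CPM in the KO section (1.22; 1.07 to 1.39), short of a call. The WT quadrants there (12.4 to 23.0 CPM) enclosed the KO ones (18.9 to 22.5 CPM), so the turn was not seen in every quadrant. Within the melanoma-dense spots, Odc1 read 12.7 CPM in the top 25% and 9.39 CPM in the bottom 25% by 11 proliferation genes of the KO section (1.35; 1.09 to 1.67), and the WT ratio was 0.959. None of the 9 genes was called between these spots, beside 2.72% (WT) and 3.17% (KO) of all genes higher and 7.34% and 4.12% lower.

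Along the range from few to many melanocytic transcripts, Odc1 ran differently in each section. When the spots were ranked by melanocytic share into 10 groups of equal size, WT Odc1 went from 9.62 CPM in the lowest group to 20.4 CPM in the seventh and 16.7 CPM in the highest. In the KO section it was 11 CPM in the lowest group, 23.8, 20.0 and 19.3 CPM in the next 3, and between 9.89 and 12 CPM in the 5 highest. The KO peak thus lay in spots of low melanocytic share; the group at 23.8 CPM had a median of 3061 UMIs per spot. With cutoffs within each section, which kept 2 genes called lower in the KO melanoma-dense spots (7.61% of all genes) and 0 higher (15.1%), Odc1 was lower in the WT collagen-rich spots than in the melanoma-dense ones (8.45 against 18.6 CPM; 0.455, 0.320 to 0.629) and higher in the KO ones (17.4 against 10.8 CPM; 1.61, 1.12 to 2.26). These ratios rest on 38 and 36 UMIs in the collagen-rich spots. The 229 KO spots are less collagen-rich than the 288 WT spots (2.85% and 12.3% of UMIs) and hold more macrophage (14710 and 5699 CPM), melanocytic (13617 and 3994 CPM) and erythroid transcripts (10047 and 773 CPM), whose part in the Odc1 ratio was not tested.

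Sms (chrX:157443851-157492287), which makes spermine, did not differ between sections in CPM beyond counting error. Over all spots it read 11.1 CPM in WT spots and 11 CPM in KO spots (0.989; 0.906 to 1.08). Melanoma-dense spots gave 11.6 and 11.3 CPM (0.977; 0.876 to 1.09). In spots of no class it read 11.7 CPM in WT and 9.33 CPM in KO spots (0.795; 0.664 to 0.949), short of a call, and 0.944 (0.801 to 1.11) with cutoffs within each section. Its gradient was seen in the WT section, from 4.18 CPM in the group of lowest melanocytic share to 13.2 CPM in the fifth, while the KO groups ranged from 9.10 to 12.2 CPM in no order. In the KO collagen-rich spots set within the section, its 15 UMIs gave a ratio to melanoma-dense spots of 0.646 (0.359 to 1.07).

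**Figure D2:**
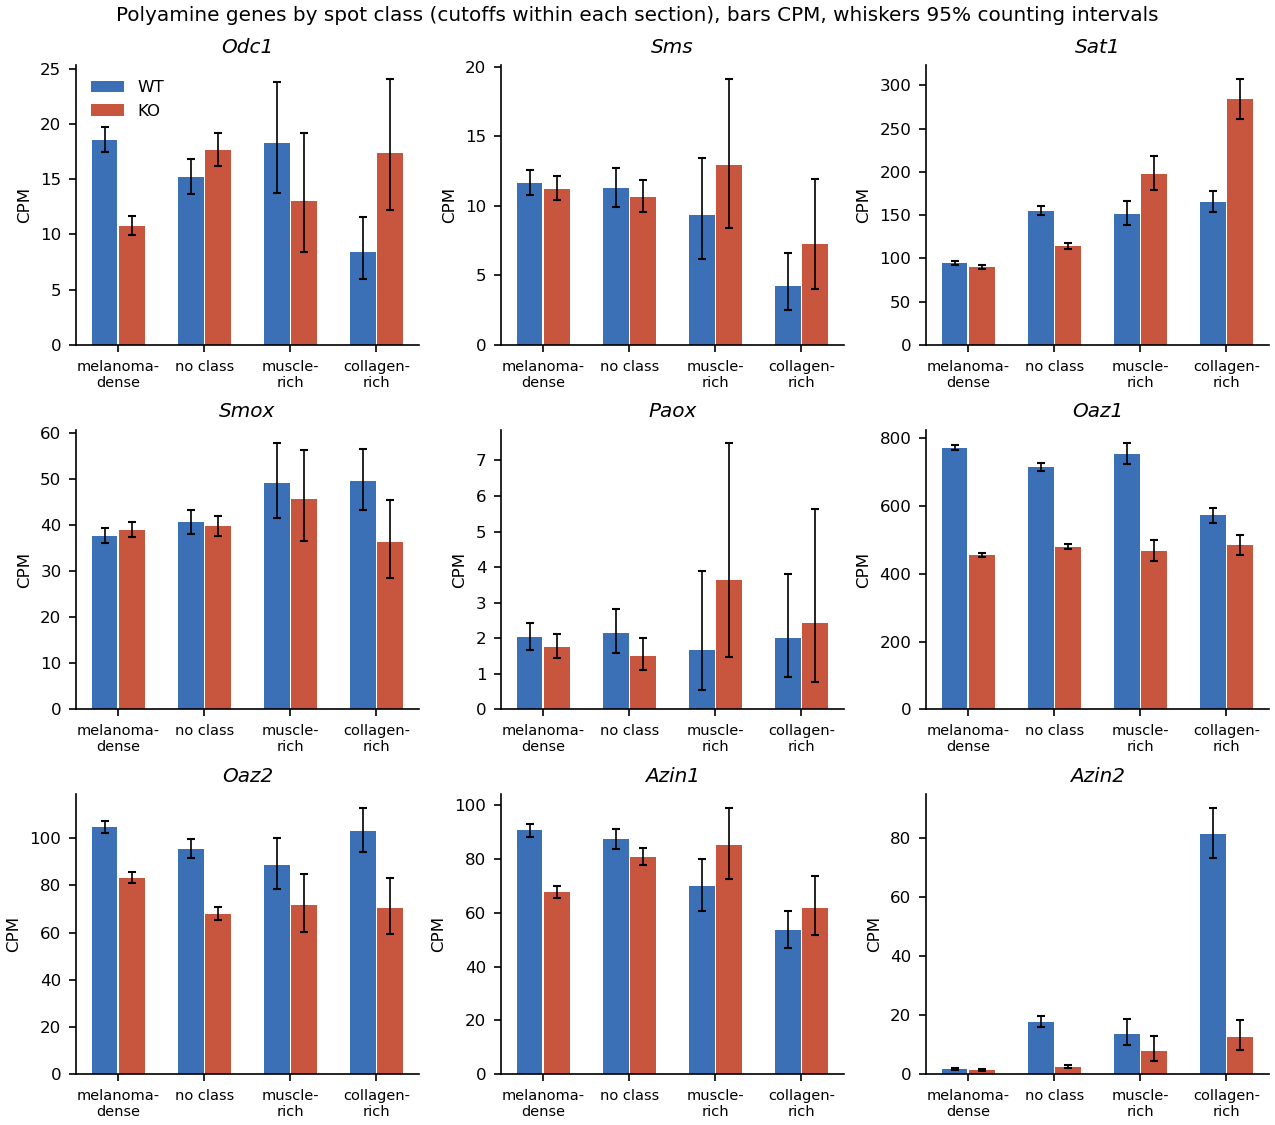
Level of each of the 9 genes in CPM (vertical axis, from 0) by spot class, with cutoffs within each section, for the WT and the KO section; whiskers are 95% counting intervals. Azin2 reaches 81.4 CPM in WT and 12.6 CPM in KO collagen-rich spots and stays near the bottom of the axis in melanoma-dense spots, Sat1 is highest in KO collagen-rich spots at 284 CPM, and Oaz1 is lower in the KO section in every class.

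Sat1 (chrX:155213126-155216449) was higher in collagen-rich and muscle-rich than in melanoma-dense spots of both sections. Over all spots it read 116 CPM in the WT (10308 UMIs) and 105 CPM in the KO section (9900 UMIs), with overlapping quadrants (92.7 to 162 and 94.9 to 133 CPM). In melanoma-dense spots the levels were 91.6 and 92.3 CPM (1.01; 0.969 to 1.05), so in CPM the sections did not differ beyond counting error there. Muscle-rich spots exceeded melanoma-dense spots in both sections, 141 CPM in the WT (1.54; 1.32 to 1.79) and 184 CPM in the KO section (2.00; 1.84 to 2.17). The 3 WT muscle-rich quadrants of at least 10 spots ran from 86.7 to 386 CPM. The lowest lay inside the WT melanoma-dense range (85.2 to 101 CPM). The KO muscle-rich quadrants (149 to 244 CPM) lay above the KO melanoma-dense ones (84.4 to 102 CPM). With cutoffs within each section, collagen-rich spots read 165 CPM in the WT (1.74; 1.61 to 1.88) and 284 CPM in the KO section (3.14; 2.88 to 3.42). The 7 KO spots past the shared cutoff held 18 Sat1 UMIs, or 412 CPM (4.46; 2.64 to 7.06).

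The Sat1 level went with macrophage transcripts. In the spots among the top 5% by macrophage markers it was 333 CPM in the WT (71 spots; 3.63-fold over melanoma-dense spots, 3.17 to 4.15) and 349 CPM in the KO section (220 spots; 3.78-fold, 3.47 to 4.12). Leaving out collagen-rich spots, it was 385 CPM in the 42 WT spots and 347 CPM in the 213 KO spots. Adipocyte-rich spots read 277 CPM for WT against 181 CPM for KO, and endothelial-rich spots 263 and 185 CPM. Macrophage content also split the KO collagen-rich spots: Sat1 was 388 CPM in the 114 spots above the median macrophage share and 221 CPM in the 115 below (1.76; 1.49 to 2.07). In the WT collagen-rich spots the same split gave 173 and 157 CPM (1.10; 0.952 to 1.28). Split by proliferation markers, the KO collagen-rich spots read 196 CPM above and 422 CPM below the median share (0.463; 0.392 to 0.547), and the WT ones 169 and 161 CPM (1.05; 0.908 to 1.22). In KO melanoma-dense spots the top 25% by proliferation share read slightly more than the bottom 25% (1.10; 1.02 to 1.18). These splits, chosen after the class levels were seen, are of spots and not of cells.

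Smox (chr2:131491858-131525183) was level between sections in CPM, at 39.5 CPM in WT spots and 39.4 CPM in the KO section (0.998; 0.953 to 1.05). In spots of no class it varied with hypoxia markers (11 genes, among them Vegfa and Slc2a1) and, the other way, with proliferation markers. It read 55.9 CPM above and 33.1 CPM below the median hypoxia share in the KO section (1.69; 1.48 to 1.93), and 46.6 against 32.1 CPM in the WT section (1.45; 1.29 to 1.64). The same spots split by proliferation share gave ratios of 0.538 (0.468 to 0.619) for KO and 0.666 (0.588 to 0.755) for WT. In collagen-rich spots the hypoxia split showed no difference beyond counting error (WT 1.13, 0.859 to 1.48; KO 0.906, 0.561 to 1.46). In melanoma-dense spots the top 25% by hypoxia share read 45.4 CPM and the bottom 25% 32.2 CPM in the KO section (1.41; 1.26 to 1.58), whereas the WT ratio was 1.12 (0.986 to 1.27). Whether these 2 ratios differ was not tested. None of the 9 genes was called in these melanoma-dense comparisons, where 4.11% (WT) and 4.08% (KO) of all genes were called higher in the hypoxic spots and 2.11% and 8.52% lower. Hypoxic spots were also shallower, in spots of no class with medians of 10156 against 33639 UMIs (WT) and 8684 against 26551 (KO), and in KO melanoma-dense spots of 34314.5 against 51250; the part of depth was not tested.

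Paox (chr7:140115735-140134334) was the most weakly measured of the 9 genes, with 182 UMIs (2.05 CPM) in WT spots and 163 UMIs (1.73 CPM) in the KO section (0.842; 0.677 to 1.05). The 15 background genes ran up to 3.75 CPM over WT and 4.02 CPM over KO spots. No Paox signal above probe background was therefore shown over all spots of either section. No difference between the sections over all spots, or between the spot classes of a section, was detectable at this depth. In macrophage-rich spots that were not collagen-rich, 3 UMIs in the WT section gave 5.16 times the melanoma-dense level (1.05 to 15.6), and 7 UMIs in the KO section gave 2.59 times (1.02 to 5.51). Taking the probe background off moved the ratio between sections to 0.663, past 1.5-fold but with no interval computed.

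Oaz1 (chr10:80826656-80829290), the most counted of the 9 genes, was lower in the KO section in each region, although in the 7 KO collagen-rich spots the interval included 1 (0.692; 0.416 to 1.08). Over all spots it read 744 CPM in the WT (66058 UMIs) and 464 CPM in the KO section (43765 UMIs), a ratio of 0.623 (0.615 to 0.630). All 4 WT quadrants (690 to 807 CPM) lay above all 4 KO quadrants (445 to 536 CPM). The ratio was 0.582 (0.574 to 0.591) in melanoma-dense spots, 0.592 (0.547 to 0.640) in muscle-rich spots, where 6.81% of all genes were called lower and Oaz1 was the 1 of 7 measured genes called, and 0.688 (0.672 to 0.704) in spots of no class. It was nearest to 1 in the collagen-rich spots set within each section, 483 against 571 CPM (0.845; 0.785 to 0.910). Within a section the range was narrower: KO levels over the 10 groups by melanocytic share ran from 447 to 543 CPM, and WT levels from 595 to 795 CPM, so no KO group reached the lowest WT group.

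Oaz2 (chr9:65676548-65690300) had the same direction with a smaller difference, 102 CPM in WT spots and 77.7 CPM in the KO section (0.764; 0.740 to 0.787). Its quadrants did not overlap either (93.7 to 112 and 74.5 to 80.5 CPM). Azin1 (chr15:38487430-38519294), the more broadly expressed antizyme inhibitor, read 87.3 and 72.4 CPM (0.830; 0.803 to 0.857), again without overlap (77.2 to 93.1 and 69.8 to 76.1 CPM). As for Odc1, its KO peak lay in the second group by melanocytic share. There it read 101 CPM against 64.5 CPM in the highest group, while in the WT section it went from 53.1 CPM to 93.8 CPM in the seventh group and 84.1 CPM in the highest. Quadrants are neighbouring areas of 1 section, so their separation says nothing of other mice. The share of all genes whose quadrants separate is not given here. The separation of Oaz1, Oaz2 and Azin1 therefore cannot be read as particular to them.

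Azin2 (chr4:128930233-128962456) had the largest ratio between sections, 10.3 CPM in the WT (912 UMIs) and 2.05 CPM in the KO section (194 UMIs), 0.200 (0.170 to 0.234). It was also the most uneven within a section: WT quadrants ran from 1.81 to 32.2 CPM, 17.8-fold, while in the KO section they spanned 1.32 to 4.38 CPM, and the lowest WT quadrant lay inside the KO range. In melanoma-dense spots it read 1.42 and 1.30 CPM (0.915; 0.663 to 1.27), where the 15 background genes ran up to 4.04 and 3.97 CPM, with medians of 0.180 and 0.491 CPM. These levels lie within the range of those genes, so no Azin2 signal above probe background was shown in melanoma-dense spots of either section. With cutoffs within each section, collagen-rich spots read 81.4 CPM in the WT (366 UMIs) and 12.6 CPM in the KO section (26 UMIs), a ratio of 0.154 (0.0995 to 0.230), in spots with 12.3% and 2.85% collagen UMIs. Of 9 genes, 7 had enough UMIs there: Azin2 was called lower, beside 11.3% of all genes, and Odc1 (2.06; 1.27 to 3.34) and Sat1 (1.72; 1.54 to 1.92) higher, beside 27.7%. Spots of no class gave 8.91 and 3.62 CPM (0.406; 0.311 to 0.525), the 1 call among the 9 genes in that region, where 6% of all genes were called lower and 8.13% higher.

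How far the Azin2 difference goes with the amount of stroma depended on the denominator. The WT section had 1145048 UMIs of the 8 collagen genes and the KO section 147370. Per 10000 collagen UMIs, Azin2 gave 7.96 UMIs in WT spots and 13.2 in the KO section (1.65; 1.41 to 1.93), the reverse of the order in CPM. Per 10000 UMIs of 10 fibroblast markers it gave 170 and 94.2 (0.555; 0.472 to 0.648), and per 10000 of 12 macrophage markers 51.7 and 13.9 (0.269; 0.229 to 0.315). These ratios were added after the class levels were seen.

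Within the 288 WT collagen-rich spots, Azin2 did not differ beyond counting error with macrophage or endothelial content. Spots above and below the median macrophage share read 82.8 and 79.9 CPM (1.04; 0.839 to 1.28), and those split by endothelial markers 78.3 and 84.7 CPM (0.925; 0.749 to 1.14). Spots with more T cell transcripts read less, 70.0 against 92.7 CPM (0.755; 0.609 to 0.933), and so did those with more proliferation transcripts, 70.9 against 92.5 CPM (0.767; 0.620 to 0.947). In the KO collagen-rich spots Azin2 was lower above the median hypoxia share (7 against 19 UMIs; 0.325, 0.115 to 0.807). In WT spots of no class, by contrast, Azin2 went with collagen (21.8 against 2.67 CPM; 8.15, 5.99 to 11.3), with T cell markers (6.11; 4.26 to 8.99) and with macrophage markers (2.61; 2.02 to 3.38). The T cell list shares Thy1 with the fibroblast list, so splits by it do not fully tell T cells from fibroblasts. KO spots of no class gave 5.91 against 2.24 CPM by collagen (2.64; 1.64 to 4.32). Thinned to 5000 UMIs per spot, 31.5% of the WT collagen-rich spots (87 of 276; exact interval 26.1 to 37.4%) and 5.49% of the KO ones (9 of 164; 2.54 to 10.2%) held an Azin2 UMI, against 0.556% and 0.504% of melanoma-dense spots. Unthinned, the collagen-rich shares were 64.2% and 10.5%, and 12 WT and 65 KO spots were too shallow to enter. The median background gene was seen in none of the thinned collagen-rich spots, which allows up to 1.33% and 2.22%.

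**Figure D3:**
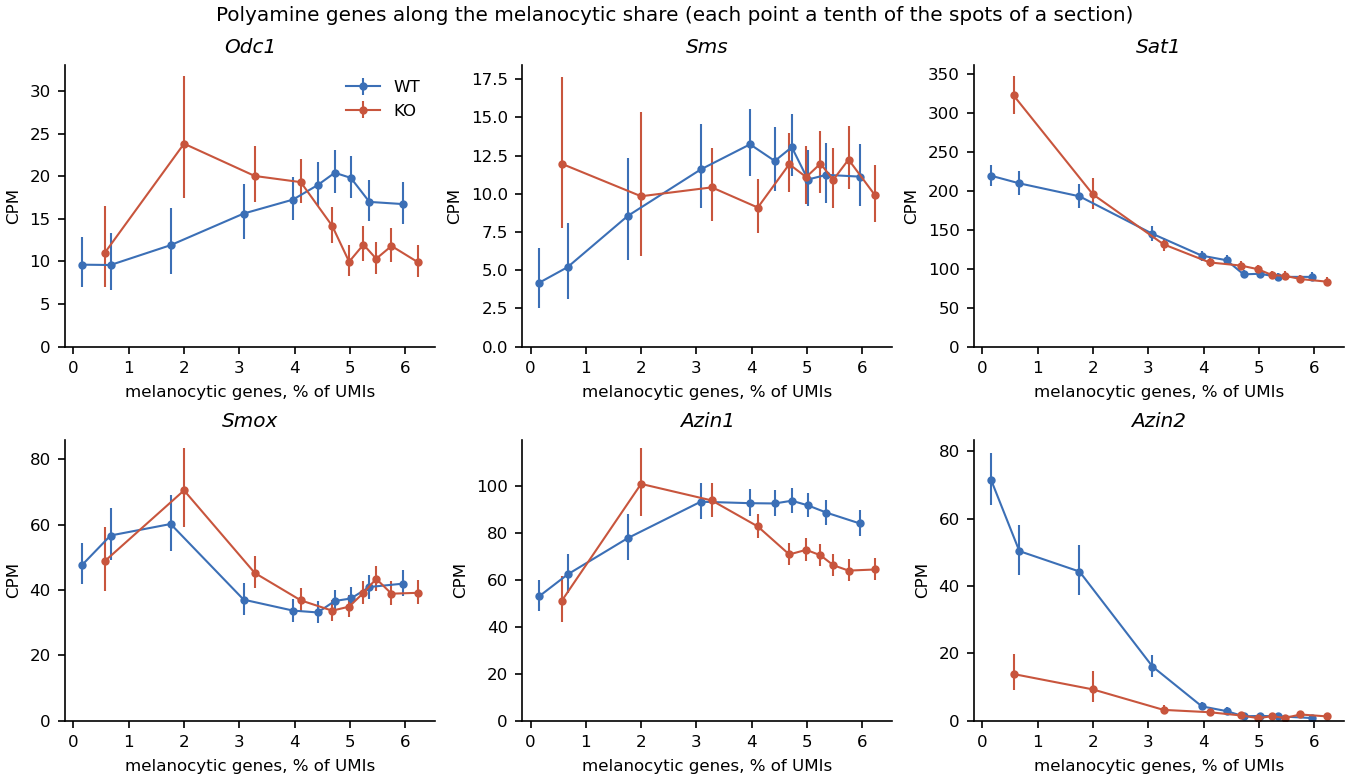
Levels in CPM of Odc1, Sms, Sat1, Smox, Azin1 and Azin2 over 10 groups of spots ranked by the share of melanocytic UMIs (horizontal axis, percent), WT and KO sections. WT Azin2 goes from 71.5 CPM in the lowest group to 0.827 CPM in the highest, Sat1 goes down in both sections, and KO Odc1 and Azin1 peak in the second group at 23.8 and 101 CPM.

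Over all spots, 2 of the 9 genes (Oaz1 and Azin2) were called lower in the KO section, where 9.93% of all genes were, and 0 higher, against 23.7% of all genes. All 9 ratios lay below 1, as did 38.0% of all genes, but the intervals of Sms, Smox and Paox included 1. The median log2 ratio was -0.27 for the 9 genes, beside 0.15 over 16961 genes. Scaling by TMM or by the median of ratios moves every log2 ratio by -0.22 or -0.23, so ratios below 1 could only stay there. The share of higher genes among those called goes from 70.5% to 52.1% or 50.7%. Under either scaling Odc1 and Oaz2 were called lower too, at 0.666 and 0.657 by TMM. Either shift also moves the intervals of Sms, Smox and Paox below 1, so these genes were level in CPM only. In melanoma-dense spots the 2 genes called lower were Odc1 and Oaz1, beside 5.82% of all genes, and 0 were called higher, beside 16.1%. The median there was -0.16 for the 9 genes and 0.09 for all genes. The TMM factors there (1.08 for KO, 0.925 for WT) put the ratios and intervals of Sat1, Sms and Smox below 1. TMM was not run for spots of no class.

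**Figure D4:**
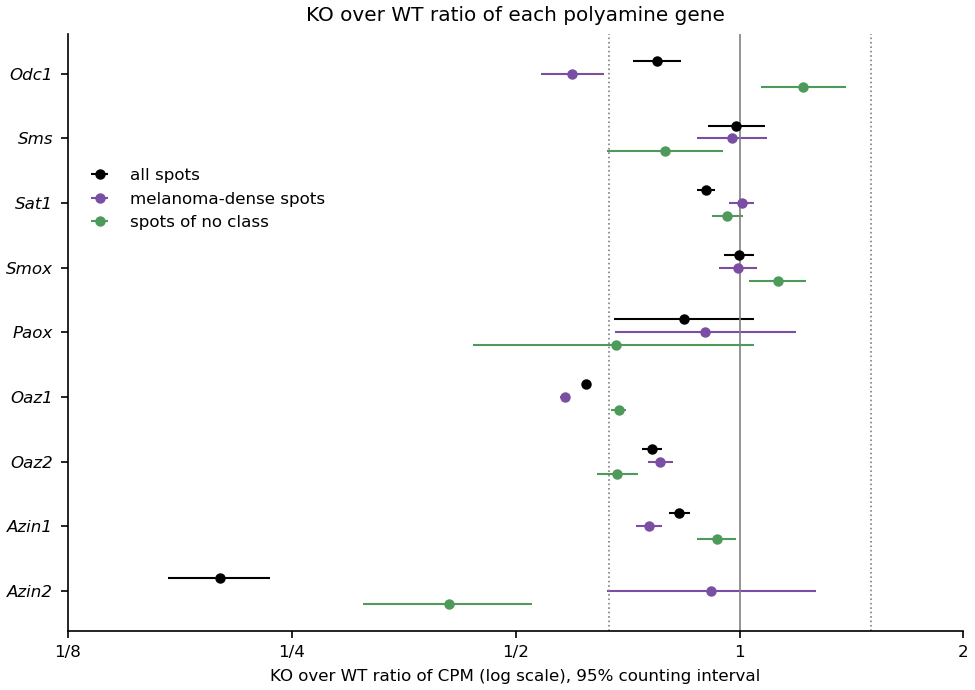
Ratio of the KO to the WT section for each of the 9 genes (log axis) in all spots, melanoma-dense spots and spots of no class, with 95% counting intervals and dotted lines at 1.5-fold. Azin2 is at 0.200 in all spots and 0.915 in melanoma-dense spots, Odc1 at 0.596 in melanoma-dense spots and 1.22 in spots of no class, and Oaz1 below 1 in all 3.

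With Oaz1 and Odc1 both lower in the KO melanoma-dense spots, their UMI ratio was nearly the same there, 41.8 (39.2 to 44.7) in WT spots and 40.9 (38.0 to 44.0) in the KO section. In spots of no class it was 43.0 in WT spots and 24.3 (22.1 to 26.8) in the KO section. The UMI ratio of Sat1 to Odc1 in melanoma-dense spots was 4.93 in WT spots and 8.32 in the KO section, and in spots of no class the order turned, at 8.18 and 6.46. Azin2 counted 1.14 times (1.01 to 1.29) as many UMIs as Azin1 in WT collagen-rich spots and 0.0158 times as many in WT melanoma-dense spots. Such ratios mix the capture of different probes, so only the same ratio in different regions can be compared.

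In muscle-rich spots Sat1 and Azin2 were the 2 genes called higher than in melanoma-dense spots in both sections, beside 11.3% of all genes in WT spots and 21.3% in the KO section. The WT call of Sat1 was lost under TMM scaling (1.43), median-of-ratios scaling (1.44) and with spots of at least 5000 UMIs (1.49), and that of Azin2 with stricter class cutoffs (5.52). None was called lower, beside 2.32% and 8.26%. Azin2 read 5.59 CPM in the WT (7 UMIs; 3.94, 1.53 to 8.54) and 6.99 CPM in the KO section (25 UMIs; 5.37, 3.31 to 8.45). Muscle-rich spots also had more collagen (10245 against 727 CPM in the WT section, 6631 against 248 CPM in the KO section) and more macrophage transcripts (2646 against 1203 and 5613 against 875 CPM). Erythroid transcripts were higher too (324 against 163 and 16066 against 1225 CPM). Melanocytic genes still gave 40618 against 51990 CPM in the WT section and 29025 against 53972 CPM in the KO section. The part of these in the ratios was not tested. Between the KO collagen-rich and melanoma-dense spots set within the section, 3 of the 9 genes (Azin2, Sat1 and Odc1) were called higher, beside 21.5% of all genes, and 0 lower, beside 27.1%. With the shared cutoff, whose 7 KO spots held 43695 UMIs, Sat1 alone was called (8.21% of all genes higher, 6.76% lower). Odc1, Sms, Smox and Paox had 0 UMIs there, for which the exact 95% interval reaches 84.4 CPM.

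The authors also deposited a measure of spatial pattern for each gene. It is Moran's I, a score that rises when neighbouring spots have similar values and that also grows with a gene's count. In the authors' deposited table Azin2 scored 0.343 in the WT section (rank 1723 of 19296 genes) and 0.0231 in the KO section (rank 11210 of 19339). Among 818 WT genes with totals within 1.25-fold of its own, Azin2 lay above 94.1%, and among 594 KO genes above 53.7%. Sat1 scored 0.242 and 0.169, Azin1 0.230 and 0.149, Oaz1 0.218 and 0.270, and Oaz2 0.196 and 0.159. Oaz1, despite these scores, lay above 0 of 100 WT genes of like total and above 9.66% of 207 KO genes. On the same terms Sat1 lay above 33.6% (WT) and 9.39% (KO), Azin1 above 48.2% and 17.9%, and Oaz2 above 19.6% and 19.1%. For Smox these shares were 22.8% and 0.759%, for Odc1 59.6% and 32.9%, for Sms 38.0% and 7.48%, and for Paox 35.4% and 37.2%. Smox (0.0984 and 0.0494), Odc1 (0.0903 and 0.0429), Sms (0.0494 and 0.0192) and Paox (0.0185 and 0.0100) scored lowest in the WT section, while KO Azin2 lay below KO Smox and KO Odc1, beside medians over all genes of 0.0614 and 0.0496.

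**Figure D5:**
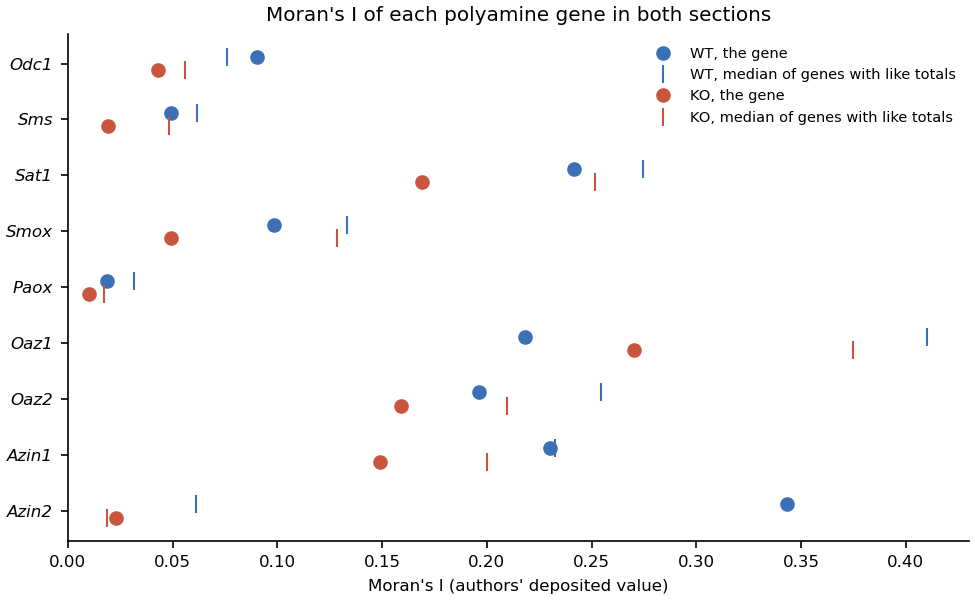
Moran's I from the authors' deposited table for the 9 genes in both sections (dots), with a tick at the median of genes whose total counts lie within 1.25-fold. Azin2 in the WT section, at 0.343, is far above its tick, while Oaz1 is below its tick in both sections.

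Of 28 other genes of polyamine supply, transport and use, 27 were in the matrices and Eif5a, the factor that carries hypusine, was not analysed here. In the WT section 21 had enough UMIs to compare collagen-rich with melanoma-dense spots. Of these, 15 were called lower, beside 39.8% of all genes, and 2 higher, beside 25.7%, with a median log2 ratio of -1.10 beside -0.35 for all genes. The 2 higher genes make ornithine or import arginine: Arg1, arginase, at 2158 against 10.5 CPM, and Slc7a2, a cationic amino acid transporter, at 10.8 against 0.300 CPM. The melanoma-dense level of Slc7a2 was near the background median of 0.180 CPM. Among the lower ones were Amd1, which provides the aminopropyl donor for Srm and Sms (15.8 against 45.5 CPM; 0.348, 0.290 to 0.414), and Mtap, Mri1, Apip and Adi1, which return its by-product to methionine. Mtap read 91.8 against 324 CPM (0.283; 0.263 to 0.304) and Adi1 42.8 against 213 CPM (0.201; 0.180 to 0.223). The others were Mat2a, Amd2, Oat, Dhps, Dohh, Myc (113 against 222 CPM; 0.511) and the transport genes Slc7a1 (0.180), Slc3a2, Slc18b1 (0.228) and Atp13a2.

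In the KO section, with cutoffs within it, 20 of these genes were measured: 9 were called lower, beside 27.1% of all genes, and 1, Arg1 (222 against 3.65 CPM), higher, beside 21.5%, with a median of -0.60 beside -0.22. Amd1 (0.777; 0.588 to 1.01), Mtap (0.668; 0.599 to 0.743) and Myc (0.935; 0.840 to 1.04) were not called there. Between the sections 26 were measured over all spots, and their median of 0.16 lay beside 0.15 for all genes. Arg1 (24.4 against 273 CPM) and Slc7a2 (1.18 against 1.97 CPM; 0.596) were the 2 called lower in the KO section, beside 9.93% of all genes. Slc7a2 lay within the range of the background genes, which reached 4.02 CPM over KO and 3.75 CPM over WT spots. Agmat, Aoc1 and Oaz3 were called higher, beside 23.7% of all genes, at 0.625, 0.678 and 0.625 CPM and so near the background median of 0.508 CPM. Amd1 (0.924), Mtap (0.867) and Myc (1.01) were not called.

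To see which genes ran most like each of the 9, levels were correlated over tiles of 6 by 6 grid steps, on the scale log2(CPM + 10) in both sections, among genes with at least 1000 UMIs in each. Over the 102 WT and 84 KO tiles of at least 10 spots the nearest genes were Bach1, Ctsh and Slfn2 for Azin2, Ap2a2, Trip10 and Cln8 for Sat1, Strap, Tsc22d2 and Polr1c for Odc1, Sun2, Rasal2 and Crebzf for Smox, Eif1a and Mbd2 for Azin1 and Shmt2 for Oaz1. Sms, Paox and Oaz2 had none with r of at least 0.5 in both sections. Some of these tiles held as few as 5563 UMIs. Over the 88 WT and 76 KO tiles of at least 200000 UMIs, a limit set after this was seen, the names changed except for Strap, beside Odc1 (r 0.70 in WT spots and 0.67 in the KO section). Next to Odc1 came Gar1 (0.65 and 0.71) and Mrto4 (0.62 and 0.65), a small nucleolar RNA protein and a ribosome assembly factor. The nearest to Smox were then Ier3 (0.57 and 0.56), Slc2a1, the glucose transporter (0.58 and 0.55), and Vegfa, the vascular growth factor (0.60 and 0.55), the last 2 being genes of the hypoxia list. The nearest to Sat1 were Tgfb1 (0.85 and 0.85), Ly6e and Tagln2, and the nearest to Azin2 were Akap13 (0.74 and 0.63), Evi2a and Arl4c. At 10 grid steps with the same limit the names changed again, apart from Vegfa for Smox (0.69 and 0.63). In the tiles of 6 grid steps with at least 200000 UMIs, Azin2 and Sat1 correlated at 0.61 in WT spots and 0.52 in the KO section. Over all tiles of that size with at least 10 spots the values were 0.35 and 0.63. The tiles share 1 section and its gradient from tumour to edge, so these values are a description with no test.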

How the data were processed

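The data are spot by gene UMI counts of 2 Visium sections. Per the file headers the authors made the deposited count matrices with Space Ranger 2.1.0, and all of their spots lie under tissue. Per the submitters' processing notes, Space Ranger, featureCounts and mm10 were named, with no role given. The authors' deposited table also holds Moran's I, a score for each gene.

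UMIs of all spots of a class were summed and divided by all UMIs of those spots. No test across samples was possible. Exact 95% binomial intervals for ratios and the calling rule were tested on simulated data. The simulated counts carried counting error only, so they say nothing of variation between spots, sections or mice. Genes were compared when both groups gave at least 50 UMIs in all, and 11 symbols that occur more than once were kept apart. Doublets do not apply to spots. The sections share 2138 spot barcodes, since every slide carries the same printed grid. The 10 genes and the other lists were chosen with earlier results of these data known, so no list is independent evidence. All 10 were to be named, with context genes past 1.5-fold and the 3 nearest genes per member.

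Alternatives were TMM (edgeR 4.0.16) and median-of-ratios scaling, a total without the top 50 and class-defining genes, spots of at least 5000 UMIs, equal weight per spot, probe background taken off, interior spots, stricter or within-section cutoffs, another fold and other UMI minimums. Python 3.11.15, scipy 1.17.1, pandas 2.3.3 and R 4.3.3 were used.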

Additional observations from a re-analysis of the deposited data

Results flagged for a closer look

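The direction of Odc1 between stroma and tumour was opposite in the sections. With cutoffs within each section, its level in collagen-rich over melanoma-dense spots was 0.455 in WT spots and 1.61 in the KO section. The difference between these ratios was not tested, since each genotype has 1 section. The 2 sets of collagen-rich spots differ in collagen content (12.3% and 2.85% of UMIs), in median depth (15267.5 and 6896 UMIs per spot), and in melanocytic (3994 and 13617 CPM) and erythroid transcripts (773 and 10047 CPM); their part was not tested.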

How the results depend on the processing

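Of 114 alternative counts of called genes, 95 stayed within 1.5 times the main count. Equal weight per spot and probe background taken off gave no interval, so calls under them left out the interval rule. Of 424 alternative ratios of single genes, 0 reversed a called ratio and 13 moved by over 1.5 times, most of them in the small muscle-rich and KO collagen-rich classes; the cause was not tested. For KO over WT in all spots, the 2 genes called lower became 4 under TMM scaling, 4 under median-of-ratios scaling and 1 at 2-fold. In melanoma-dense spots the 2 became 4 under median-of-ratios scaling and 0 at 2-fold. In the WT collagen-rich spots the 3 genes called lower became 1 at 2-fold. In the 7 KO collagen-rich spots the 1 gene called higher became 2 with equal weight per spot and 2 with the probe background taken off. With cutoffs within the section it became 3. The 0 called lower became 5 with equal weight, where Odc1, Sms, Smox and Paox, with 0 UMIs, passed 1.5-fold without an interval. In the WT muscle-rich spots the 2 called higher became 1 under TMM, median-of-ratios scaling, spots of at least 5000 UMIs, 2-fold or stricter cutoffs and 4 with equal weight, and the 0 called lower became 2 with equal weight. In the KO muscle-rich spots the 2 became 4 with equal weight and 1 at 2-fold. Stricter cutoffs left no KO collagen-rich spot. Odc1 over all spots went from 0.774 to 1.01 with equal weight per spot, and in melanoma-dense spots ranged from 0.501 to 0.629 over the alternatives. With the probe background taken off, Azin2 in melanoma-dense spots went from 0.915 to 0.652, past 1.5-fold but with no interval computed. No paired analysis was possible because each genotype has 1 section. Depth limits Paox everywhere and Azin2 in melanoma-dense spots, where 71 and 90 UMIs were counted. In melanoma-dense spots both genes lay within the range of the background genes.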

Other observations

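Azin2 was also counted in spots rich in markers of red blood cells, some of them collagen-rich. In the 53 WT spots among the top 5% by 5 erythroid genes it read 63.4 CPM (32 UMIs), but 22 of these were collagen-rich, and the other 31 gave 18.3 CPM (3 UMIs). In the 238 KO spots it read 5.11 CPM (29 UMIs). Above the median erythroid share Azin2 was lower in WT spots of no class (0.701; 0.537 to 0.910), and in WT collagen-rich spots the ratio was 0.907 (0.731 to 1.12). Endothelial-rich spots that were not collagen-rich gave 11.9 CPM in the WT (30 UMIs) and 16.9 CPM in the KO section (15 UMIs).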
